A study of Mus musculus with 6 samples.

Results

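The cell cycle and proliferation genes described here are 48 genes of DNA replication and cell division, read from the gonadal fat pad (gonadal white adipose tissue, gWAT) of wild-type C57BL/6 animals kept on normal chow (NCD) or on a high-fat diet (HFD). The members were taken from a written list of mouse gene symbols matched to the NCBI gene numbers of the deposited read-count table, and all 48 were found among its 19790 genes. They comprise 4 regulators of the step from G1 into S phase, 14 S phase genes, 2 transcription factors that switch on mitotic genes, and 28 mitosis genes. Every member passed the filter on low counts that left 15241 genes for testing.

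RNA was sequenced from 3 mice on NCD and 3 mice on HFD. Both groups are labelled wild-type, and both were on their diet for 8 weeks from an age of 6 weeks according to the labels. Each library is a mouse of its own, so the p-values weigh the difference between the diets against the spread among mice within a diet. The gWAT was taken whole, so every level below is a mean over all the cells of the fat pad, and a change in the number of dividing cells and a change in the RNA of each cell cannot be told apart.

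A cell that divides copies its DNA in S phase and separates the copies in mitosis. Cyclins and their kinases release E2F transcription factors, which switch on the genes that load helicases onto DNA and make nucleotides, and a later wave of transcription supplies the kinases, kinetochore proteins and motors of mitosis. Fully differentiated adipocytes rarely divide, and dividing cells in the fat pad of obese mice are known to include progenitors, endothelial cells and macrophages of crown-like structures.

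The libraries held 49575113 to 66360046 counted reads, and the 2 libraries that bear on every comparison below stood apart from the rest in different ways. Genes of seminal vesicle secretion took 58.6% of the counts of NCD replicate 1, 11.2% of NCD replicate 2 and 2.30% of NCD replicate 3, against 2 to 8 counts in each HFD library. The scaling factors for RNA composition (TMM, trimmed mean of M-values) were 0.496 in NCD replicate 1 and 1.02 to 1.27 in the others. Levels are CPM, a gene's counts over the library total after scaling by these factors, times 1000000. The defining markers of fat were present in all 6 mice, and the summed level of 8 adipocyte markers was 2349 CPM in NCD replicate 1 against 4344 to 12414 CPM in the other mice. HFD replicate 1 was the highest of the 6 mice in 46 of the 48 members, where it was the highest in 15.9% of all genes tested. Results are therefore given with all 6 mice, without NCD replicate 1, and without HFD replicate 1. Every NCD library held seminal vesicle RNA and the HFD libraries held almost none. Diet and the admixture of this RNA thus cannot be told apart in any of these comparisons.

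The stretches around 4 start sites are printed here because Mcm6 and Cenpa are members called with all 6 mice, Cdk1 and Top2a are mitosis members called without NCD replicate 1, and the short sequences they hold differ between S phase and mitosis genes. RefSeq windows (GRCm38.p6, 250 bases before to 50 after each annotated start) were held for 39 members. The letters searched on both strands were CCAAT (the CCAAT box), TTTGAA (the cell cycle homology region, CHR) and TTTCCCGC, TTTCGCGC, TTTGCCGC or TTTGGCGC (called E2F here). Each sequence runs 5′ to 3′ on the strand of the gene from 150 bases before to 30 bases after the start, and the capitals mark every match to these letters on either strand. Mcm6, which encodes a helicase subunit, lies at chr1:128359676-128359855 on the minus strand. Cenpa, the centromeric histone, lies at chr5:30666736-30666915 on the plus strand. Cdk1, the kinase that starts mitosis, lies at chr10:69352883-69353062 on the minus strand, and Top2a, the topoisomerase that untangles sister chromosomes, at chr11:99024160-99024339 on the minus strand.
Mcm6: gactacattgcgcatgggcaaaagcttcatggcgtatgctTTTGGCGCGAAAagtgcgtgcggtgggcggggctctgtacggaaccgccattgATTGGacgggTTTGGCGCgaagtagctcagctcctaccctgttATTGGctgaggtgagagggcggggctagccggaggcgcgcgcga
Cenpa: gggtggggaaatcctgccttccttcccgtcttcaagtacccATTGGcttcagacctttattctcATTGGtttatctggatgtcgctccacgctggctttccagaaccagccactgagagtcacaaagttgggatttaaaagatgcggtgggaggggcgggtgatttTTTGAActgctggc
Cdk1: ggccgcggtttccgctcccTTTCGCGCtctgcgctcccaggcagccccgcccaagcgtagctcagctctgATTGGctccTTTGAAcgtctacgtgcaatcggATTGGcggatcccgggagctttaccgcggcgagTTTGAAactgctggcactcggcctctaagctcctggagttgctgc
Top2a: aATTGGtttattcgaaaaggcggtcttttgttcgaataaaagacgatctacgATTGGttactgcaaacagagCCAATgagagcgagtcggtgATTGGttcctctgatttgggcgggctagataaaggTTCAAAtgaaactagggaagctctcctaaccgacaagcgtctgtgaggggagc

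The printed stretch of Mcm6 held 3 E2F matches, of which 2 overlap on opposite strands, and no CHR match. That of Cenpa held a CHR match after the start and 2 CCAAT boxes before it. That of Cdk1 held 2 CHR matches, 2 CCAAT boxes and an E2F match in this stretch, and that of Top2a held a CHR match read on the opposite strand and several CCAAT boxes. Over all members with a window, CHR was found in 19 of 24 mitosis genes (79.2%) and 1 of 12 S phase genes (8.33%), against 20.2% of 27025 genes with a window and 15% of the 11962 of them that were tested. E2F was found in 7 of 12 S phase genes (58.3%) and 1 of 24 mitosis genes (4.17%), against 2.6% of all genes and 4.48% of those tested. The CCAAT box was found in 21 of 24 mitosis genes (87.5%) and 9 of 12 S phase genes (75%), against 41.1% of all genes. A match is a run of letters and not a binding site, and the spellings of E2F were narrowed after a wider set had been looked at in the members.

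**Figure D1:**
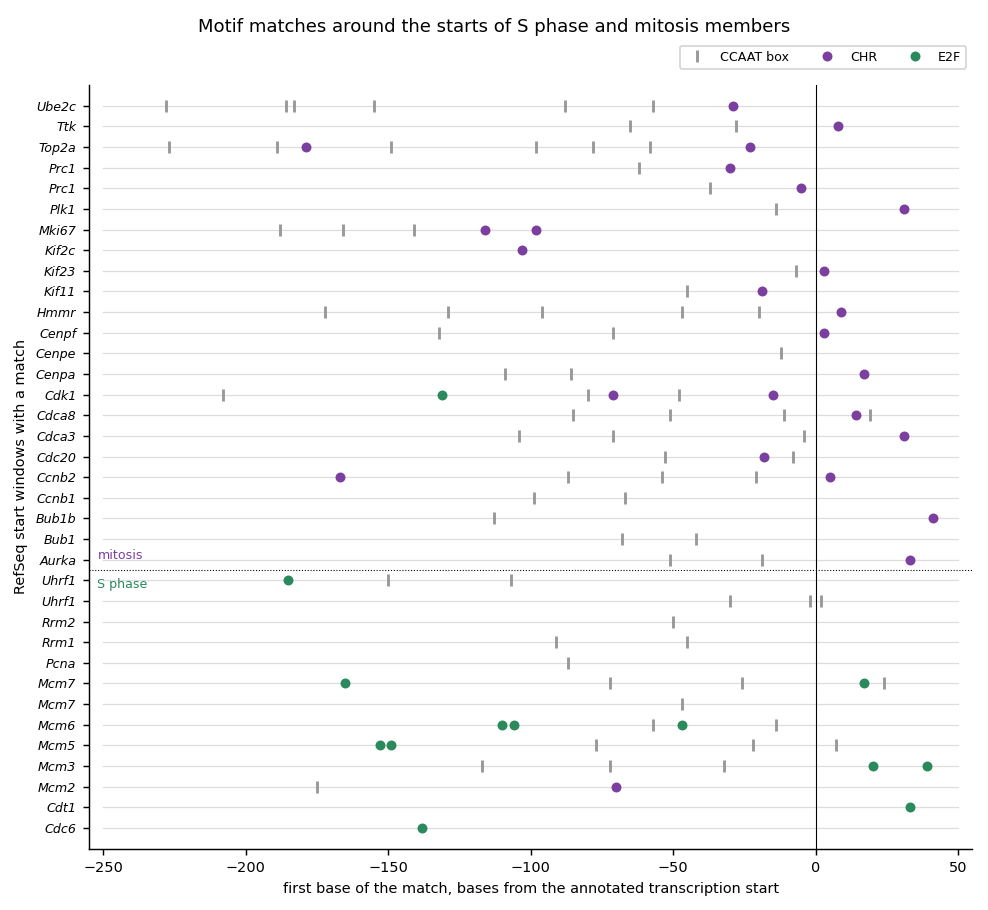
Distance in bases from the annotated transcription start to the first base of each match (CCAAT box, grey bar; CHR, purple dot; E2F, green dot) for each RefSeq start window of an S phase or mitosis member that held a match. CHR matches lie almost all in the mitosis windows and E2F matches in the S phase windows.

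With all 6 mice, 6 of the 48 members were higher on HFD at an adjusted p below 0.05 (edgeR quasi-likelihood test, Benjamini-Hochberg over all genes), where 5.58% of all genes tested were called higher. These were Cdt1, Mcm4, Mcm6, Rrm1 and Uhrf1 of the 14 S phase genes and Cenpa of the 28 mitosis genes. No member was called lower, where 1.9% of all genes were, and none was lower at an unadjusted p below 0.05 or in DESeq2 either. Without NCD replicate 1, 16 members were called higher and 0 lower, where 10.7% and 10.1% of all genes were called higher and lower. The 16 hold all 6 of the former and comprise 11 S phase genes, 3 mitosis genes, E2f1 and Mybl2. For the 28 mitosis genes, the shares called in both fits lay near or below those of all genes. Leaving out any of the other 5 mice instead left almost no gene past the threshold. In the fits without NCD replicates 2 and 3 and without HFD replicates 1, 2 and 3, 0.00648%, 0.00634%, 0.00636%, 0.0386% and 0.0191% of all genes were called higher (1, 1, 1, 6 and 3 genes) and 0 members. In these fits 31 to 38 members were higher at an unadjusted p below 0.05. At that p stood 3815 of 15433, 4345 of 15764, 3588 of 15713, 3119 of 15541 and 2988 of 15688 genes, in either direction. With all 6 mice these were 4524 of 15241 genes, and 5825 of 15510 without NCD replicate 1. Leaving out a further mouse beside NCD replicate 1 gave 0 members without NCD replicate 2 or 3, where 1.54% and 0.284% of all genes were called higher, with 18 and 16 members higher at an unadjusted p below 0.05. Without HFD replicates 1, 2 and 3 it gave 20, 12 and 5 members, where 13.7%, 6.43% and 6.75% of all genes were called. DESeq2 on all 6 mice called 35 members higher, 23 of mitosis and 9 of S phase, where it called 14.2% of all genes.

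The log2 fold change of HFD over NCD had a median of 1.88 over the 28 mitosis genes and 0.89 over the 14 S phase genes, against -0.08 over all genes tested. The standard errors were wider in mitosis, with a median of 0.53 against 0.29 in S phase and 0.31 over all genes. The estimate was above 0 for 47 of the 48 members, with Ccnd1 as the exception, and it stayed above 0 under all 12 alternatives tried for 44 of them, all but Ccnd1, Ccne2, Mcm7 and Gins2. Without NCD replicate 1 the medians were 1.76 for mitosis, 1.09 for S phase and 0.02 for all genes.

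**Figure D2:**
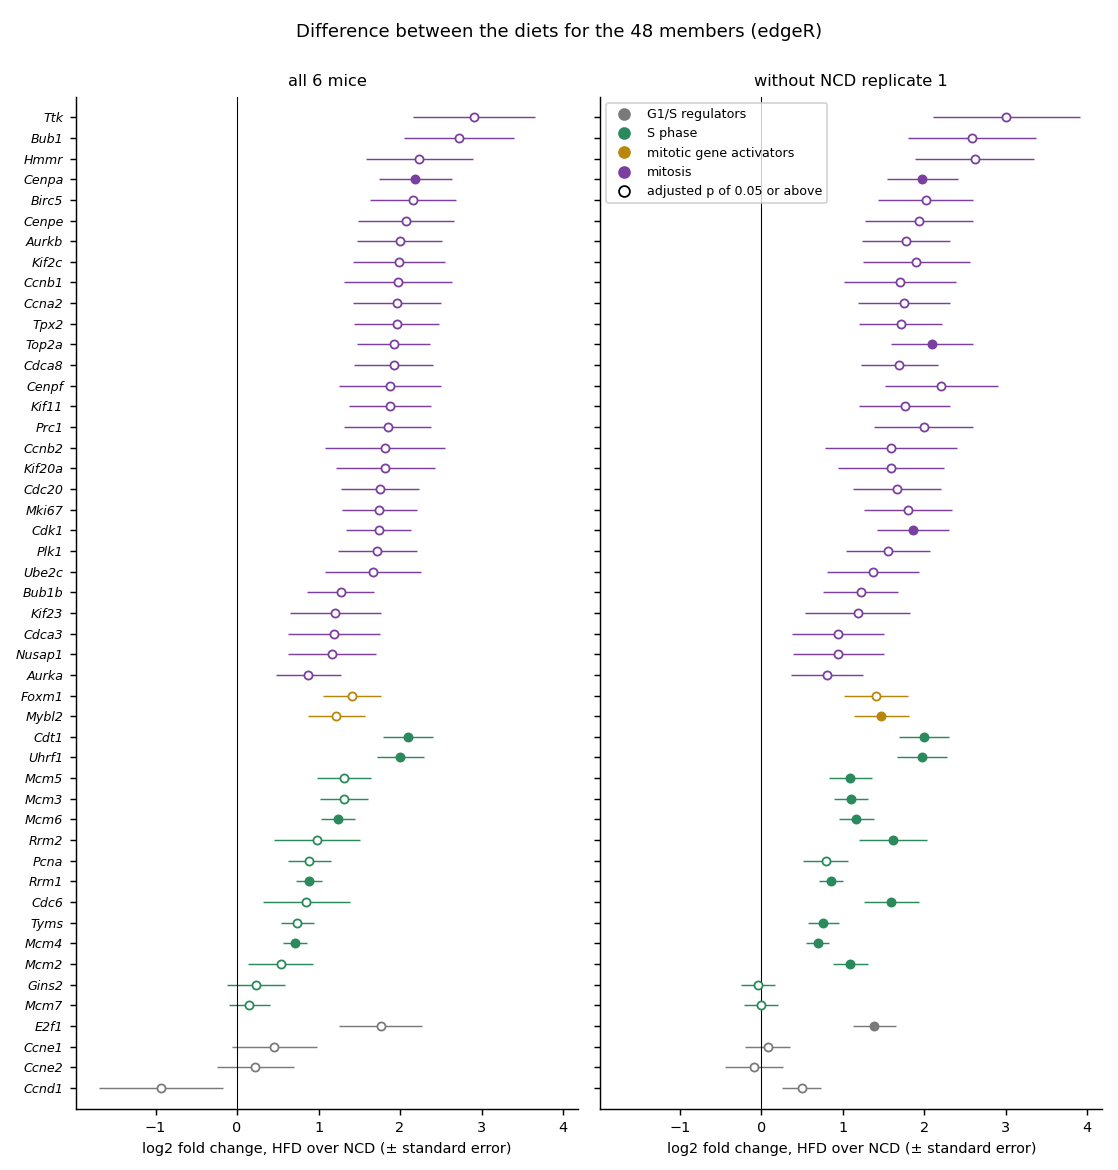
Log2 fold change of HFD over NCD with its standard error (horizontal bars) for the 48 members, with all 6 mice on the left and without NCD replicate 1 on the right, coloured by class. Filled circles have an adjusted p below 0.05 (edgeR), which holds for 6 members on the left and 16 on the right. The mitosis genes lie farther to the right with wider bars.

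Licensing of replication origins loads the Mcm2 to Mcm7 helicase onto DNA with the help of Cdc6 and Cdt1. Cdt1 was at 2.47, 3.09 and 3.31 CPM on NCD and at 16.8, 8.89 and 12.4 CPM on HFD, with replicates 1, 2 and 3 of each diet in this order here and in all values below. All HFD mice lay above all NCD mice, and Cdt1 rose by a log2 fold change of 2.1 (adjusted p = 0.0235, edgeR). Cdc6 was at 4.84, 1.2 and 2.01 CPM on NCD and 5.67, 4.11 and 4.67 CPM on HFD. NCD replicate 1 reached the HFD range, and the log2 fold change of 0.85 had an adjusted p of 0.329 in edgeR, but Cdc6 rose by 1.6 without that mouse (adjusted p = 0.0273).

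Of the 6 helicase subunits, Mcm4 and Mcm6 passed the test with all 6 mice. Mcm6 was at 15.7, 18.7 and 18.7 CPM on NCD and 53.2, 34.1 and 37.9 CPM on HFD, and Mcm4 at 16.5, 18.4 and 17.1 CPM and 28.8, 25.2 and 31.1 CPM. Both sets of values were without overlap between the diets, and the NCD mice lay close together. Mcm6 rose by 1.24 (adjusted p = 0.0289) and Mcm4 by 0.71 (adjusted p = 0.0447) on the log2 scale in edgeR.

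Mcm3 was at 7.76, 14.6 and 12.8 CPM on NCD and 33.3, 22.4 and 31.3 CPM on HFD, and Mcm5 at 5.14, 10.05 and 8.52 CPM and 26.1, 15.9 and 16.9 CPM. The diets did not overlap for either gene, NCD replicate 1 was the lowest mouse, and the adjusted p in edgeR was 0.0507 for Mcm3 and 0.0654 for Mcm5. Both rose without that mouse, by 1.1 (adjusted p = 0.0209) and 1.09 (adjusted p = 0.0377).

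Mcm2 was at 23.3, 11.1 and 8.43 CPM on NCD and 24.4, 17.3 and 20.3 CPM on HFD. The NCD replicate 1 value lay inside the HFD range, so that the log2 fold change was 0.53 ± 0.40 (SE) with it and 1.1 ± 0.21 without it (adjusted p = 0.0224, edgeR). Mcm7 was at 17.6, 27.2 and 24.4 CPM on NCD and 32.6, 21.3 and 22.8 CPM on HFD, with HFD replicates 2 and 3 inside the NCD range. Its log2 fold change was 0.15 ± 0.25 with all 6 mice and 0.00187 ± 0.21 without NCD replicate 1, and it turned to -0.055 without HFD replicate 1. Gins2, a part of the same replicative helicase, was at 3.2, 7.31 and 6.6 CPM and 7.8, 5.55 and 6.79 CPM, with overlap between the diets. Exons of Mcm7 and Gins2 overlap genes on the opposite strand, by 2758 bases with Gse1 in the case of Gins2, and the strand setting of the counting was not given, so reads of the partner genes cannot be told apart from theirs.

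Ribonucleotide reductase, whose large subunit is Rrm1 and whose S phase subunit is Rrm2, and thymidylate synthase, Tyms, make the nucleotides for replication. Rrm1 was at 20.8, 23.9 and 21.9 CPM on NCD and 46.7, 41.7 and 35.01 CPM on HFD. All HFD mice lay above all NCD mice, and Rrm1 rose by 0.89 on the log2 scale (adjusted p = 0.0325, edgeR). Rrm2 was at 9.22, 3.73 and 3.29 CPM on NCD and 16.6, 7.13 and 8.37 CPM on HFD, and NCD replicate 1 lay above HFD replicates 2 and 3. Its log2 fold change was 0.98 ± 0.53 with all 6 mice (adjusted p = 0.266), and it rose by 1.62 without NCD replicate 1 (adjusted p = 0.0449). Tyms was at 4.96, 4.63 and 5.1 CPM on NCD and 8.98, 7.31 and 8.25 CPM on HFD. There was no overlap between the diets, and Tyms passed the threshold without NCD replicate 1 (log2 fold change 0.76, adjusted p = 0.0406) but not with it (adjusted p = 0.074).

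Pcna, the sliding clamp of DNA polymerases, was at 37.1, 45.8 and 49.5 CPM on NCD and 113, 61.1 and 71.1 CPM on HFD. HFD replicate 1 stood above the other HFD mice, no HFD mouse reached down to the NCD range, and neither fit passed the threshold (adjusted p = 0.0917 with all 6 mice and 0.0967 without NCD replicate 1). Uhrf1, which brings the maintenance methyltransferase to newly copied DNA, was at 4.17, 5.32 and 3.92 CPM on NCD and 23.2, 12.8 and 17.9 CPM on HFD. All HFD mice lay well above all NCD mice, and Uhrf1 rose by 2.0 on the log2 scale (adjusted p = 0.0228). Per kilobase of exon, Pcna was the most abundant of the 14 S phase genes, at 29.1 CPM per kb on NCD and 53.8 CPM per kb on HFD as group means.

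**Figure D3:**
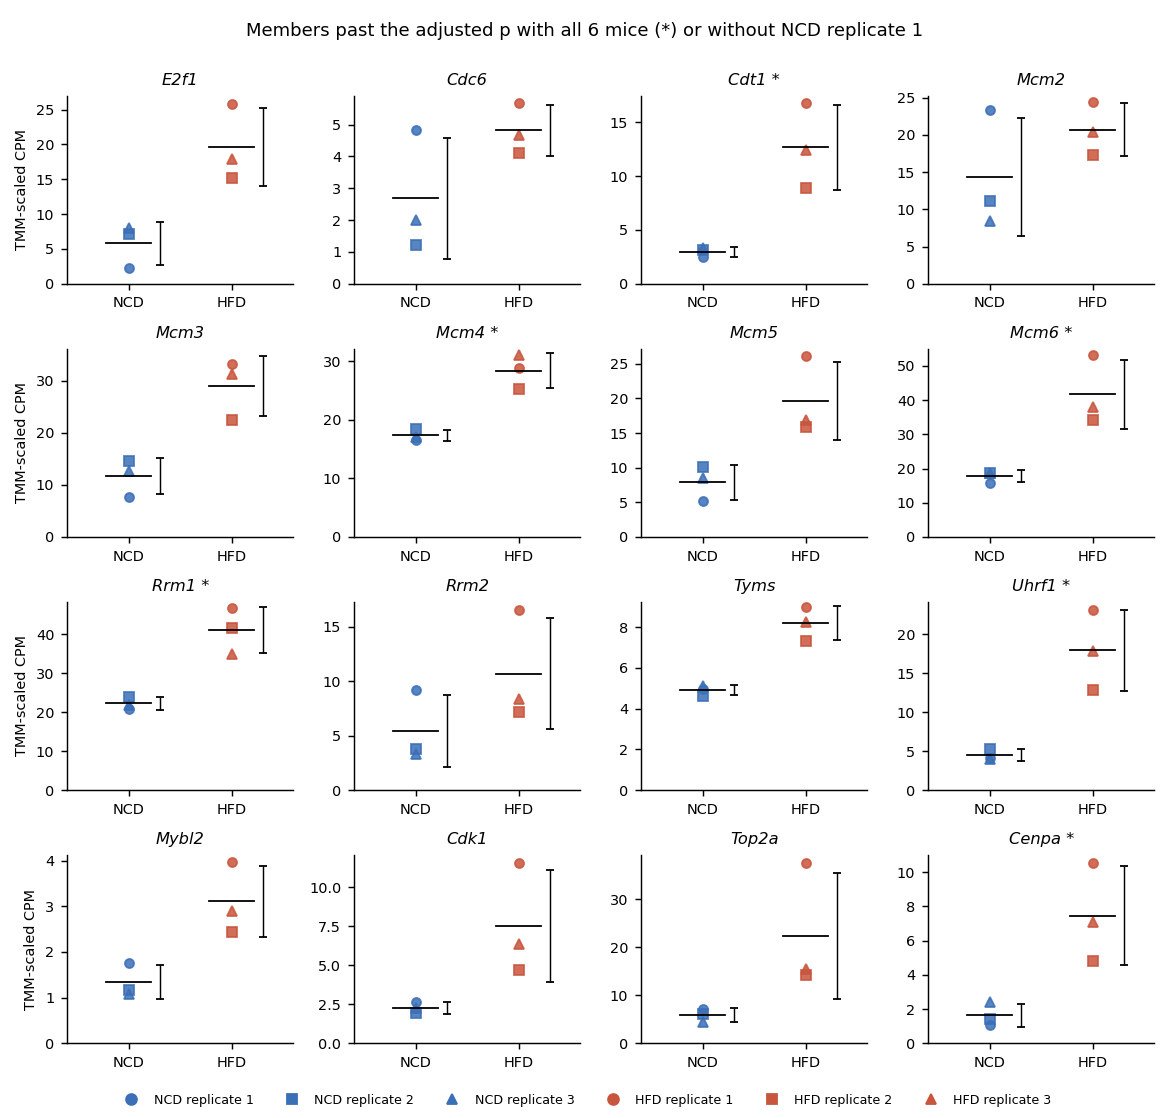
TMM-scaled CPM of the 16 members with an adjusted p below 0.05 in edgeR with all 6 mice (marked *) or without NCD replicate 1. Each symbol is a mouse, horizontal lines are group means and the bars beside them span 1 SD either way (n = 3). NCD replicate 1 (blue circle) lies apart above the other NCD mice in Cdc6, Mcm2 and Rrm2, and apart below them in E2f1, Mcm3 and Mcm5. HFD replicate 1 (red circle) is the highest mouse in all panels but Mcm4.

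E2f1, a transcription factor of S phase genes, was at 2.19, 7.17 and 7.96 CPM on NCD and 25.8, 15.1 and 17.9 CPM on HFD. The diets did not overlap, and E2f1 rose by 1.39 on the log2 scale without NCD replicate 1 (adjusted p = 0.0209), while the fit with all 6 mice gave 1.76 with an adjusted p of 0.0853 (edgeR). Ccnd1, the cyclin that starts G1 progression, was at 347, 72.4 and 43.1 CPM on NCD and 90.8, 80.7 and 70.6 CPM on HFD. Its highest value by far was that of NCD replicate 1, and the log2 fold change of -0.93 ± 0.76 became 0.50 ± 0.24 without that mouse, neither past the threshold.

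Ccne1 was at 1.49, 4.93 and 5.77 CPM on NCD and 6.5, 4.03 and 6.26 CPM on HFD, and Ccne2 at 2.31, 4.45 and 7.2 CPM and 7.5, 4.31 and 4.51 CPM. These cyclins activate the kinase of the G1/S step, the diets overlapped for both, and their log2 fold changes were 0.46 ± 0.52 and 0.22 ± 0.47. Without NCD replicate 1 the estimates were 0.08 ± 0.28 and -0.09 ± 0.35.

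Foxm1 and Mybl2 encode the activators of the later wave of mitotic genes. Foxm1 was at 2.34, 2.57 and 2.25 CPM on NCD and 9.39, 4.22 and 5.45 CPM on HFD, and Mybl2 at 1.77, 1.17 and 1.08 CPM and 3.97, 2.44 and 2.9 CPM. No HFD mouse overlapped the NCD mice for either gene. Mybl2 rose without NCD replicate 1 (log2 fold change 1.48, adjusted p = 0.0339, edgeR), and Foxm1 had adjusted p-values of 0.0656 with all 6 mice and 0.0568 without NCD replicate 1. Foxm1 shares exon bases on its own strand with Tex52 in the annotation.

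Among the 28 mitosis genes, all HFD mice lay above all NCD mice for 24, against 20.5% of all genes tested, yet the spread within the HFD group was wide. The coefficient of variation over the 3 HFD mice had a median of 65.3% in mitosis, against 22.0% in S phase and 15.2% over all genes. HFD replicate 1 was the highest of the 6 mice for 28 of 28 mitosis genes and 13 of 14 S phase genes. Its level over the mean of HFD replicates 2 and 3 had a median of 2.76 in mitosis, 1.39 in S phase and 1.00 over all genes. NCD replicate 1 stood at a median fold of 0.70 in mitosis and 0.87 in S phase over the mean of NCD replicates 2 and 3.

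**Figure D4:**
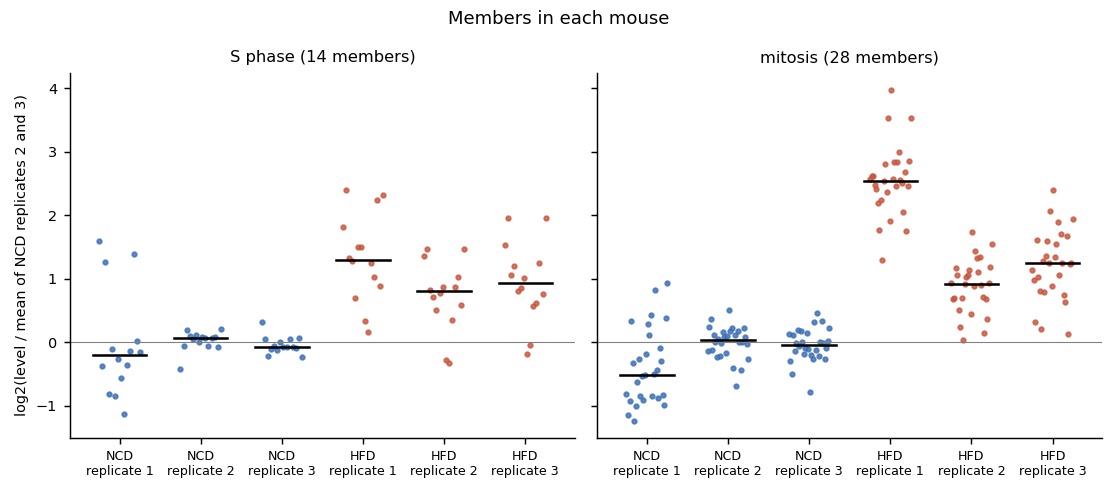
Log2 of the level of each S phase gene (left) and mitosis gene (right) in each mouse over the mean of NCD replicates 2 and 3, with a dot for each gene and a black line at the median. In mitosis the median of HFD replicate 1 lies far above those of HFD replicates 2 and 3, which themselves lie above 0. The dots of NCD replicate 1 scatter to both sides there, with their median below 0.

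Cyclins and their partner kinase drive entry into mitosis, and the anaphase-promoting complex ends it. Cdk1 was at 2.62, 1.91 and 2.25 CPM on NCD and 11.6, 4.67 and 6.36 CPM on HFD. All HFD mice lay above all NCD mice, and Cdk1 rose by 1.87 on the log2 scale without NCD replicate 1 (adjusted p = 0.037) and did not pass with all 6 mice (log2 fold change 1.74, adjusted p = 0.0532, edgeR). Its cyclin partners were estimated at 1.97 (Ccna2), 1.97 (Ccnb1) and 1.82 (Ccnb2) with adjusted p-values of 0.076, 0.113 and 0.163. The activator Cdc20, the ubiquitin-conjugating enzyme Ube2c and Cdca3, an adaptor for the destruction of Wee1, were estimated at 1.75, 1.66 and 1.19, none past the threshold. The level of Ccnb1 in HFD replicate 1 was 3.43 times the mean of the other HFD mice.

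Plk1 and the Aurora kinases Aurka and Aurkb build the spindle and correct its attachments, Birc5 and Cdca8 hold Aurkb at the centromere, and Bub1, Bub1b and Ttk run the spindle checkpoint. Ttk, with the highest estimate of the 48, was at 0.274, 0.318 and 0.13 CPM on NCD and 3.52, 0.743 and 1.18 CPM on HFD, from 7 to 203 counts. The mice of the diets did not overlap, but HFD replicate 1 stood at 3.66 times the mean of the other HFD mice, and the log2 fold change of 2.9 ± 0.75 had an adjusted p of 0.0671 in edgeR. Aurka, the lowest estimate in mitosis, was at 1.55, 1.61 and 2.1 CPM on NCD and 4.56, 1.89 and 3.2 CPM on HFD, with HFD replicate 2 inside the NCD range (log2 fold change 0.87 ± 0.40, adjusted p = 0.201). The remaining genes of this group were estimated at 1.27 (Bub1b) to 2.72 (Bub1), and 0 of the 8 passed the threshold in edgeR with all 6 mice or without NCD replicate 1. An unadjusted p below 0.05 was found for 7 in each fit. In either direction it was found for 4524 of 15241 genes with all 6 mice and 5825 of 15510 without NCD replicate 1. DESeq2 called 7 with all 6 mice, where it called 14.2% of all genes.

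Of the genes for chromosomes, kinetochores and the spindle, Cenpa was at 1.07, 1.44 and 2.38 CPM on NCD and 10.5, 4.78 and 7.06 CPM on HFD. The diets did not overlap, and Cenpa rose by 2.19 on the log2 scale (adjusted p = 0.0431, edgeR). Top2a was at 7.15, 6.15 and 4.41 CPM on NCD and 37.6, 14.3 and 15.4 CPM on HFD. HFD replicates 2 and 3 lay close together above the NCD mice with HFD replicate 1 far above both, and Top2a rose by 2.09 without NCD replicate 1 (adjusted p = 0.0387), with an adjusted p of 0.0549 for all 6 mice.

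Mki67, whose protein coats mitotic chromosomes and is the common mark of proliferating cells, was at 7.7, 8.01 and 6.21 CPM on NCD and 42.4, 13.1 and 18.1 CPM on HFD. The diets did not overlap, HFD replicate 1 stood apart again, and the log2 fold change of 1.75 ± 0.46 had an adjusted p of 0.0705 with all 6 mice and 0.0669 without NCD replicate 1. The kinetochore genes Cenpe and Cenpf, the motors Kif11, Kif20a, Kif23 and Kif2c, and the spindle genes Tpx2, Prc1, Nusap1 and Hmmr were estimated at 1.16 (Nusap1) to 2.24 (Hmmr). None of these 10 passed the threshold in edgeR with all 6 mice or without NCD replicate 1. In these fits 8 and 7 of them had an unadjusted p below 0.05, against 4524 of 15241 and 5825 of 15510 genes in either direction. DESeq2 called 8 with all 6 mice, where it called 14.2% of all genes. Exons of Kif20a, Nusap1, Prc1, Plk1, Ccna2, Cdc20 and Ube2c, and of Ccnd1 and Ccne2, overlap genes on the opposite strand, and Ccnb1, Ccnb2, Pcna and Tyms have annotated pseudogene copies, so their counts are less certain. Kif23 and Nusap1 were among the 4 mitosis genes in which the diets overlapped, with Ccnb2 and Aurka.

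Leaving out HFD replicate 1 lowered the mitosis estimates and narrowed their errors. With NCD replicates 2 and 3 against HFD replicates 2 and 3, the median log2 fold change was 1.09 in mitosis (median SE 0.33) and 0.88 in S phase (median SE 0.20), against -0.01 over all genes. In that fit 20 members were called higher, 9 of mitosis, 10 of S phase and E2f1, where 13.7% of all genes were called higher. The 9 mitosis genes were Ccna2, Cdk1, Cdca8, Mki67, Top2a, Cenpa, Tpx2, Prc1 and Hmmr. Top2a had a log2 fold change of 1.49 ± 0.22 (adjusted p = 0.0137) and Mki67 of 1.13 ± 0.24 (adjusted p = 0.0293). Of the 20, 14 were among the 16 called without NCD replicate 1 alone. In the fit without both mice the estimate was below 0 for Ccne1 (-0.06), Ccne2 (-0.40), Mcm7 (-0.23) and Gins2 (-0.18), none past the threshold. Without HFD replicate 1 but with NCD replicate 1, 0 members passed the threshold in edgeR, 31 had an unadjusted p below 0.05, and 1 gene in the whole table was called higher. At that unadjusted p stood 3588 of 15713 genes, in either direction.

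The 28 mitosis genes added up to 47.7, 58.5 and 55.4 CPM on NCD and 318, 105 and 131 CPM on HFD. The 14 S phase genes added up to 173, 195 and 185 CPM on NCD and 437, 285 and 325 CPM on HFD. All HFD mice lay above all NCD mice in both sums, and the ratio of the mitosis sum to the S phase sum was 0.276, 0.300 and 0.299 on NCD and 0.729, 0.37 and 0.403 on HFD.

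The 10 macrophage markers (Adgre1, Cd68, Csf1r, Fcgr1, Mrc1, Itgax, Trem2, Cd9, Lyz2 and Cd163) added up to 721, 937 and 799 CPM on NCD and 3667, 2090 and 2609 CPM on HFD. HFD replicate 1 had the highest sum here too, and 4 of the 10 markers passed the threshold with all 6 mice and 8 without NCD replicate 1, all of them higher on HFD. The markers did not share one order among the HFD mice. Adgre1, the F4/80 antigen, was at 25.5, 57.2 and 36.2 CPM on NCD and 418, 210 and 233 CPM on HFD, and Itgax, the integrin of macrophages in crown-like structures, at 13.8, 10.95 and 7.18 CPM and 169, 36.03 and 43.04 CPM. Fcgr1, an Fc receptor, was lowest in HFD replicate 1 of the HFD mice, at 65.4, 146 and 236 CPM against 9.95, 23.3 and 16.9 CPM on NCD, and so was Mrc1, the mannose receptor, at 299, 303 and 487 CPM against 44.1, 126 and 109 CPM. Cd163 and Cd9 were estimated at log2 fold changes of -0.07 and -0.56, neither past the threshold. Cd9 was at 359, 59.6 and 31.2 CPM on NCD and 155, 69.7 and 79.5 CPM on HFD. It thus made up a large part of the macrophage sum in NCD replicate 1, the mouse rich in seminal vesicle RNA. The percentages of that mouse given next are lowered by it. As a percentage of the summed macrophage markers, the mitosis genes stood at 6.62, 6.25 and 6.93 on NCD and 8.68, 5.04 and 5.02 on HFD. The S phase genes stood at 23.98, 20.8 and 23.2 on NCD and 11.9, 13.6 and 12.5 on HFD, lower in all HFD mice than in all NCD mice. The part of macrophages in the results on the members was not tested.

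**Figure D5:**
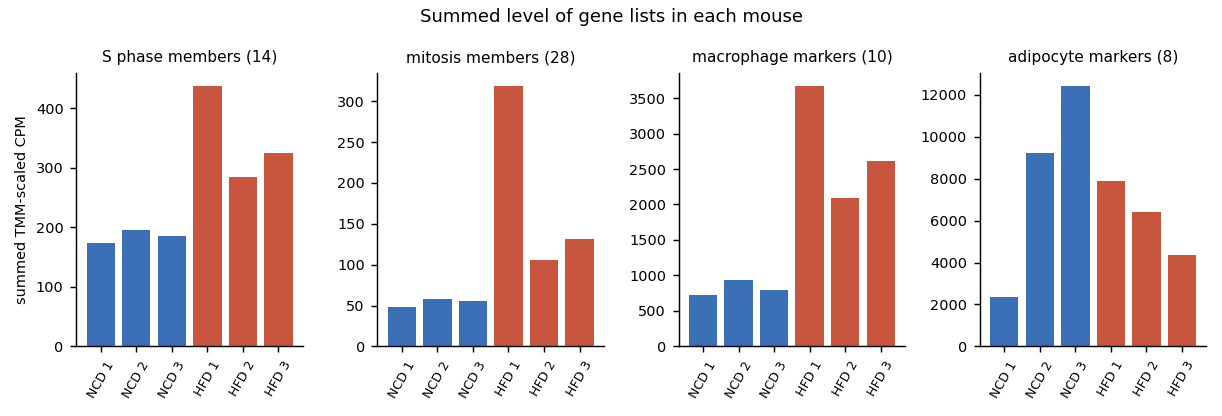
Summed TMM-scaled CPM in each mouse of the 14 S phase members, the 28 mitosis members, 10 macrophage markers and 8 adipocyte markers (NCD blue, HFD red, vertical axes from 0). The first 3 sums are highest in HFD replicate 1 and lower in all NCD mice than in all HFD mice, and adipocyte markers are lowest in NCD replicate 1.

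Markers of other cells that could divide or carry these transcripts were read beside the members. Of the 4 leukocyte markers 3 were called higher on HFD by edgeR and DESeq2. The other, Cd52, was at 1883, 198 and 51.6 CPM on NCD and 98.5, 69.9 and 117 CPM on HFD, highest in NCD replicate 1, and was called lower by DESeq2 but not by edgeR (log2 fold change -2.9, adjusted p = 0.186; -0.37 without NCD replicate 1). The 6 T cell markers in the table added up to 9.13 to 16.0 CPM over the 6 mice and the 5 B cell markers to 4.20 to 17.9 CPM. No T or B cell marker passed the threshold or had an unadjusted p below 0.05 in edgeR, and DESeq2 called 0 of them. Of the 6 adipose progenitor markers 0 passed the threshold in edgeR, 4 were higher at an unadjusted p below 0.05, and DESeq2 called 3 higher. Of the 5 endothelial markers 0 passed with all 6 mice in edgeR or DESeq2, with 0 at an unadjusted p below 0.05 in edgeR, and 1 was called higher without NCD replicate 1. Of the 8 adipocyte markers 0 passed with all 6 mice in edgeR, DESeq2 called 2 lower, 2 were lower at an unadjusted p below 0.05, and 5 were called lower without NCD replicate 1. Of the 5 mesothelial markers 1 (Msln) was called higher. The 5 testis germ cell markers added up to 2.68, 0.685 and 0.335 CPM on NCD and 3.07, 0.0959 and 0.0159 CPM on HFD, and the 5 erythroid markers to 123 to 411 CPM over the 6 mice. The 5 epithelial markers added up to 997, 106 and 28.96 CPM on NCD and 26.9, 115 and 39.1 CPM on HFD, and the 5 smooth muscle markers to 5776, 697 and 217 CPM and 302, 229 and 215 CPM, in both lists highest in NCD replicate 1. How much of the Ccnd1, Cdc6, Mcm2 and Rrm2 levels in NCD replicate 1 came from seminal vesicle tissue was not tested.

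Further genes of the cell cycle, from 4 further lists, were read in the same fits. Of 32 further S phase genes 2 were called higher with all 6 mice (Clspn and Gmnn) and 11 without NCD replicate 1, against 5.58% and 10.7% of all genes, with a median log2 fold change of 0.67. With all 6 mice the share of the S phase list called lay near that of all genes. Of 38 further mitosis genes 4 were called higher (Espl1, Incenp, Spc25 and Trip13) and 10 without NCD replicate 1, against the same shares, with a median of 1.46. No gene of either list was called lower by edgeR in either fit, 1 mitosis gene was lower at an unadjusted p below 0.05 and DESeq2 called 1 of them lower. Incenp, the scaffold that carries Aurkb, was at 5.57, 7.61 and 7.38 CPM on NCD and 24.4, 15.5 and 20.2 CPM on HFD. Every HFD mouse lay above the NCD mice, HFD replicate 1 was the highest, and Incenp rose by 1.55 on the log2 scale (adjusted p = 0.0253, edgeR).

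Of 11 further G1 cyclins, kinases and E2F genes, E2f2 and E2f8 were called higher with all 6 mice, and Cdk6 and E2f7 also without NCD replicate 1. Cdk6, a partner kinase of the D-type cyclins, was at 37.1, 15.7 and 11.5 CPM on NCD and 49.9, 40.9 and 46.5 CPM on HFD, with NCD replicate 1 between the other NCD mice and the HFD mice. Of 17 inhibitors of the cycle and pocket proteins, Cdkn1a and Btg2 were called higher in both fits. Cdkn1a, an inhibitor of cyclin-dependent kinases induced by stress, was at 16.5, 45.9 and 31.2 CPM on NCD and 130, 180 and 208 CPM on HFD. All HFD mice lay above all NCD mice, HFD replicate 1 was the lowest HFD mouse, and Cdkn1a rose by 2.47 on the log2 scale (adjusted p = 0.0281, edgeR). Cdkn2c, an inhibitor of the D-type cyclin kinases, was at 73.3, 304 and 304 CPM on NCD and 93.2, 80.7 and 45.3 CPM on HFD. NCD replicate 1 lay inside the HFD range, and Cdkn2c and Cdkn2b were called lower on HFD without that mouse (Cdkn2c log2 fold change -2.04, adjusted p = 0.0117), but not with it.

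Across the members, 39 of 48 had all HFD mice above NCD replicates 2 and 3, against 27.9% of all genes. All HFD mice lay above all NCD mice for 36 of 48, against 20.5% of all genes. Over the mean of the NCD mice, the mitosis genes stood at median folds of 6.43, 2.05 and 2.58 in HFD replicates 1, 2 and 3, and the S phase genes at 2.34, 1.51 and 1.71. Over the mean of NCD replicates 2 and 3 alone, these median folds were 5.82, 1.90 and 2.37 in mitosis and 2.47, 1.74 and 1.92 in S phase. All 3 HFD mice thus had both median folds above 1 on either reference, with mitosis above S phase in each. The gap was widest in HFD replicate 1 and small in HFD replicate 2 over NCD replicates 2 and 3. The difference between the classes was not tested.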

How the data were processed

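Total RNA of gWAT was isolated with Trizol, and poly(A) libraries were made with a TruSeq stranded mRNA kit. The deposited table holds whole-number read counts per gene for 6 mice, made by the authors. The submitters' processing notes name bcl2fastq 2.20.0, Trimmomatic, HISAT2 2.1.0, StringTie 1.3.4d, DESeq2 and the builds mm10 and GRCm38. What each tool did, the annotation and the counting strand were not given in the sources used here. An age of 6 weeks at the start of the diets stands in the labels and one of 8 weeks in the study's methods.

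Gene numbers were matched to symbols for 19742 of 19790 genes. Genes were kept by filterByExpr at its minimum count of 10 and minimum total of 15. TMM factors set the scale, and the quasi-likelihood test of edgeR 4.0.16 (R 4.3.3, limma 3.58.1) was run on diet alone, with two-sided p-values adjusted by Benjamini-Hochberg over all 15241 genes and a threshold of 0.05. The common biological coefficient of variation was 0.424. DESeq2 1.42.0, other scalings, no filter, a replicate block and each mouse left out were the alternatives, and their effect is given below. The same alternatives within the fit without NCD replicate 1 were added after seeing the data. Library totals ranged from 49575113 to 66360046 counts, and the lowest count of any member was 7. Values in every mouse were given for members past the threshold with all 6 mice or without NCD replicate 1. They were also given for the members with the highest and lowest fold change and the highest level of each class, and for Ccne1. The members and gene lists were chosen with earlier results of these data known. Start windows are RefSeq sequences of GRCm38.p6, and 39 of the 48 members matched.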

Additional observations from a re-analysis of the deposited data

How the results depend on the processing

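The number of members called depended on the spread among the 3 mice of each diet. It was 6 with all mice and 35 with DESeq2, and 0 with a replicate block, where 32 had an unadjusted p below 0.05 and 5 of all 15241 genes were called higher. With the block 3571 of all genes had such an unadjusted p, in either direction. NCD and HFD mice of the same replicate number did not deviate together (r = -0.05, -0.03 and -0.007 across genes), so no pairing by number was seen. No NCD mouse correlated best with the HFD mouse of its own replicate number. HFD replicate 3 bears another number in the header of its deposited counts. Leaving out 1 mouse in turn gave 0 to 16 members, 0 to 3 mitosis genes, 0 to 11 S phase genes and 0 to 27 further pathway genes, the highest value each time without NCD replicate 1. The 1 mitosis gene called became 0 without the filter on low counts, 6 with total counts alone, 23 with DESeq2 and 0 with the replicate block. The 5 S phase genes became 2, 9 and 0 in the last 3 of these settings, and the 10 further pathway genes became 5 without the filter, 41 with DESeq2 and 0 with the replicate block. The 8 members called with total counts alone share 2 with the 6. Over all genes, 748 of 15241 were called higher with total counts alone and 644 of 19056 without the filter. DESeq2 called 14.2% of all genes higher.

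Without NCD replicate 1, the 16 members became 30 with total counts alone, 37 with DESeq2 and 19 with the replicate block. These settings called 2544, 2805 and 1831 of 15510 genes higher, against 1665 in the fit itself. Leaving out a further HFD mouse gave 5 to 20 members, with the shares of all genes given above. With all 6 mice, total counts alone moved the median log2 fold change of all genes from -0.08 to 0.44, and that of the S phase members to 1.49. Without NCD replicate 1 they moved that of all genes from 0.02 to 0.23. The log2 fold change turned sign for Ccnd1 (0.018 with total counts alone, and from -1.35 to 0.50 when 1 mouse was left out), Ccne2 (from -0.087 to 0.70 when 1 mouse was left out), Mcm7 (from -0.055 to 0.28) and Gins2 (from -0.038 to 0.45), with NCD replicate 1 left out at the turn for Ccnd1, Ccne2 and Gins2 and HFD replicate 1 for Mcm7 and again for Ccne2 (-0.073). The cause was not tested. Of 576 values of members under alternatives, 483 kept their direction and their side of the threshold, 45 came to pass it, 42 no longer passed it and 6 turned. Low counts limit the rarest members, such as Ttk with 7 counts in NCD replicate 3.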
